A study of Mus musculus with 30 samples.

Results

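The 10 genes described here encode enzymes that break down the branched-chain amino acids leucine, isoleucine and valine. They were chosen by symbol: Bcat2, Bckdha, Bckdhb, Dbt, Bckdk, Ppm1k, Ivd, Mccc1, Mccc2 and Hibadh. All 10 are among the 11249 genes of the deposited table. RNA was measured in 30 libraries of whole muscle from male mice, taken 3 days after surgery. Each animal had a sham operation or a transection of the spinal cord at the high-thoracic level T3 or the low-thoracic level T9. The gastrocnemius, a hindlimb muscle, has 4 libraries for each surgery, and the triceps brachii, a forelimb muscle, has 6. No genotype, strain, age or drug is given in the labels, and sham-operated mice are the only controls. The study's title concerns muscle wasting after acute spinal cord injury and how it depends on the level of the lesion.

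Skeletal muscle is a main site of the first step of branched-chain amino acid breakdown, because the liver has little of the transaminase that starts it. The mitochondrial transaminase Bcat2 moves the amino group to 2-oxoglutarate, and the branched-chain 2-oxoacid dehydrogenase complex then removes carbon dioxide and commits the carbon skeleton to oxidation. The kinase Bckdk switches this complex off by phosphorylating its E1 alpha subunit, and the phosphatase Ppm1k switches it on again. After the complex the 3 amino acids part: Ivd, Mccc1 and Mccc2 act on the leucine skeleton, and Hibadh acts on that of valine.

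The promoters of 4 members are printed here because the results below turn on them: Ivd had the largest mean change of the 10, Ppm1k changed differently in the 2 muscles, Bckdk alone did not rise in the triceps after T3, and Bckdhb encodes a subunit of the enzyme that this kinase and phosphatase control. The RefSeq promoter table for GRCm38.p6 held 11 promoters for 9 of the 10 members, each with 250 bases before the annotated start and 50 after it. In the sequences, capitals mark short motifs, each searched on both strands. AGAACA is part of the sequence that the glucocorticoid receptor binds. CACCC is the core that Klf factors bind. The GC box is GGGCGG. The site of the estrogen-related receptors is AAGGTCA. The last motif is CCAAT. This last motif was added after the sequences had been seen, and where motifs overlap the capitals run together.
Ivd, chr2:118861744-118862043, plus strand: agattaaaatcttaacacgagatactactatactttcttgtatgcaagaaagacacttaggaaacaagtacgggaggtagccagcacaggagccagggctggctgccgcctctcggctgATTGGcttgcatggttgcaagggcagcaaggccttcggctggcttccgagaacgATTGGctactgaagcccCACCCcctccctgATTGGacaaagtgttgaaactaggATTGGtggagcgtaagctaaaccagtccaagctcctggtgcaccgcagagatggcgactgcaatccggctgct
Ppm1k, chr6:57535438-57535737, minus strand: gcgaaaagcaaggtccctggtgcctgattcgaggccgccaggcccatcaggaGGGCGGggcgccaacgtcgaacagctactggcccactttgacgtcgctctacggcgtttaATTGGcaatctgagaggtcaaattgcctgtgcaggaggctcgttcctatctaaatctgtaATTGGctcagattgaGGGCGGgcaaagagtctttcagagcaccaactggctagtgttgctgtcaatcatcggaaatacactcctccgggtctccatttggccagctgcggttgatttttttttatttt
Bckdk, chr7:127903823-127904122, plus strand: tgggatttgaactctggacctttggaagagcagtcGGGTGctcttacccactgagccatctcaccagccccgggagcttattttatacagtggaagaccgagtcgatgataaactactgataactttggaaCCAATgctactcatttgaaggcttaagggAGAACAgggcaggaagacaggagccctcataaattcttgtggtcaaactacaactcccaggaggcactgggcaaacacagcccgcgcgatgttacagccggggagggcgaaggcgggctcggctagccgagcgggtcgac
Bckdhb, chr9:83924887-83925186, plus strand: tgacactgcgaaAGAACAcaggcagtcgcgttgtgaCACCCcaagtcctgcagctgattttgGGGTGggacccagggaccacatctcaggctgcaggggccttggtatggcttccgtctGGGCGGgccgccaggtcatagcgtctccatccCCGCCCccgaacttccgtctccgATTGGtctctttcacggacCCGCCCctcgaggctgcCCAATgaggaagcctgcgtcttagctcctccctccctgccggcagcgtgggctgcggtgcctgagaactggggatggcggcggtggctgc
The Ivd promoter held CCAAT or its reverse complement at 4 places, those of Ppm1k and Bckdhb at 2 places each, and that of Bckdk at 1. CCAAT was found in 8 of the 11 member promoters and in 37.4% of all 32851 promoters of the table. CACCC was found in 7 of 11 and in 57.5% of all promoters, and GGGCGG in 4 of 11 and in 35.7% of all. AGAACA was found in 2 of 11, those of Bckdk and Bckdhb printed above, and in 6233 of all 32851. AAGGTCA was found in 0 of 11 and in 4.72% of all. The promoter of Bckdha, the subunit that Bckdk phosphorylates, is not printed, and it held no match to any of these motifs. A match is a run of letters in this window and nothing more.

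All values below are CPM, the reads of a gene per 1000000 reads of its library, or differences between group means of log2 CPM. Depth was 13.3 to 23.4 M reads (M, 1000000) in all but 1 library and 88.8 M in triceps T3 replicate 5. The median log2 CPM of the genes was higher in the injured groups, with group means of 3.90 after sham, 4.17 after T3 and 4.30 after T9 in the gastrocnemius and 3.74, 3.97 and 3.91 in the triceps. Each comparison with sham therefore has a median difference over all genes that is not 0. This median is given beside the members, with values after each library was centred on its own median. Medians were lowest in 4 libraries: replicates 3 and 4 of sham triceps, replicate 4 of sham gastrocnemius, and the first replicate of T9 triceps. Triceps sham replicate 4 also had a summed level of 972 CPM for 7 macrophage markers, against a median of 33.5 CPM in its group, and of 935 CPM for 5 fibroblast markers, against a median of 272 CPM. All 8 myofibre markers were present in every library, with summed levels of 83295 to 153892 CPM. Of the 5 markers of limb position, Tbx4 was in the file, at 1.46 to 3.55 CPM in sham gastrocnemius and 1.10 to 3.52 CPM in sham triceps, and these ranges overlap.

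The members differ widely in abundance. Per kilobase of the principal transcript, mean levels in sham triceps ran from 2.14 CPM per kb for Ppm1k to 68.0 for Hibadh, with Bckdk at 41.9, Bcat2 at 41.7, Ivd at 30.3, Bckdhb at 18.7, Bckdha at 14.5, Mccc2 at 12.7, Mccc1 at 11.1 and Dbt at 9.0. Bckdk and Bcat2 did not differ beyond their spread (SD 11.4 and 7.04, n = 6), and neither did Mccc2 and Mccc1 (SD 2.55 and 4.68). Sham gastrocnemius gave the same order apart from Mccc1, at 12.29, and Mccc2, at 12.28, which changed places. Ppm1k was the lowest member by this length in all 6 groups. The order depends on the length used. By the union of all annotated exons Bckdk came first in 5 groups and Hibadh fell to the sixth place. By this union Mccc1 came last in triceps T3, at 3.48 CPM per kb, below Ppm1k at 3.63.

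**Figure D1:**
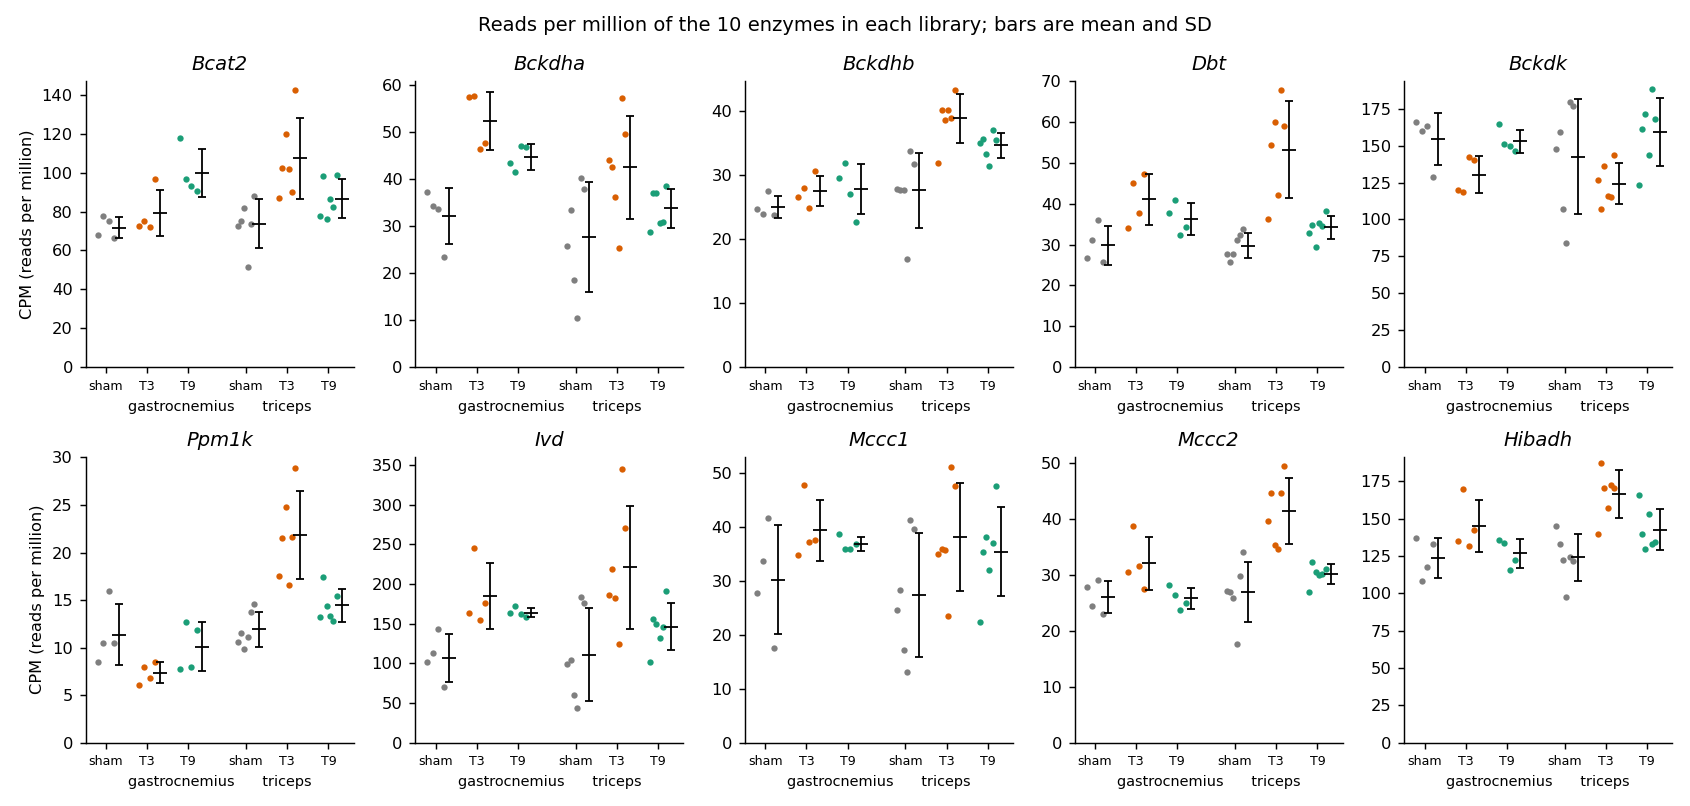
Each panel shows 1 gene, with CPM from 0 on the y axis and 1 point per library in the 6 groups on the x axis (4 libraries per gastrocnemius group, 6 per triceps group). Black bars are the mean and SD. In the triceps the T3 libraries of Dbt, Ppm1k and Mccc2 lie above every sham library, and in the gastrocnemius the 3 groups of Ppm1k lie at or below 15.9 CPM.

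In the triceps, 9 of the 10 members rose after T3 injury, and none fell. Over all 11249 genes tested, 23.3% passed an adjusted p under 0.05 in either direction and 4.32% were lower (limma, Benjamini-Hochberg over all genes). The median log2 difference of the members was 0.59, against 0.23 for all genes. Because these are bulk samples, a change in RNA per cell cannot be told apart from a change in the share of cells that express the gene. In the triceps 2 of 6 libraries in each group carry the number 57 in their description and 4 carry 60, and the model holds a term for this number.

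Bcat2, which carries out the transamination, ranged from 51.5 to 88.3 CPM in sham triceps (median 74.3) and from 87.0 to 142.7 CPM after T3 (median 102.3). The lowest T3 library lay just below the highest sham library. The log2 difference was 0.54 ± 0.14 (SE, adjusted p = 0.0111).

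The 3 subunits of the dehydrogenase complex that belong to it alone were each higher after T3. Bckdha, the E1 alpha subunit that carries the phosphorylation sites, had 10.3 to 40.2 CPM in sham (median 29.5) and 25.2 to 57 CPM after T3 (median 43.3). Bckdhb, the E1 beta subunit, had 16.9 to 33.8 CPM in sham (median 27.7) and 31.8 to 43.3 CPM after T3 (median 39.5). In the T3 group 2 libraries of Bckdha and 1 of Bckdhb lay within the sham range, and the rest lay above it. Dbt, the E2 core on which the acyl group is carried, had 25.8 to 33.7 CPM in sham (median 29.4) and 36.2 to 67.9 CPM after T3 (median 56.7), and the 2 groups did not overlap. Of the 10 members, 3 showed no overlap in this direction, against 5.63% of all genes. The log2 differences were 0.71 ± 0.24 for Bckdha (adjusted p = 0.0376), 0.52 ± 0.13 for Bckdhb (0.00900) and 0.82 ± 0.13 for Dbt (0.000243).

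The regulators of the complex did not move together. Ppm1k, the phosphatase, had 9.89 to 14.6 CPM in sham (median 11.3) and 16.6 to 28.9 CPM after T3 (median 21.6). All 6 T3 libraries lay above all 6 sham libraries, and the log2 difference was 0.86 ± 0.14 (adjusted p = 0.000334). Bckdk, the kinase, had 84.3 to 179.8 CPM in sham (median 153.5) and 106.9 to 143.4 CPM after T3 (median 121.4). Its log2 difference of -0.16 ± 0.15 did not pass the test (adjusted p = 0.464), and the T3 libraries lay inside the sham range. After centring each library on its median, Bckdk was lower by this test (-0.39, adjusted p = 0.0386), and without the 4 libraries of lowest median the difference was -0.40 (adjusted p = 0.0170). Among the 4 libraries per group that carry the number 60 it was 0.0026.

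The ratio of Bckdk reads to Ppm1k reads within a library does not depend on the scaling of libraries. In the triceps it was 7.57 to 14.0 after sham (median 12.6), 4.96 to 7.23 after T3 (median 5.41) and 9.24 to 14.7 after T9 (median 10.8). Each of the 6 T3 libraries had fewer kinase reads per phosphatase read than every sham and every T9 library. In the gastrocnemius the ratio was 19.7, 15.2, 10.2 and 12.3 after sham, 19.8, 14.8, 20.96 and 16.6 after T3, and 21.2, 11.9, 18.8 and 12.4 after T9. These 3 groups overlapped. The ratio compares reads, not molecules, since the transcripts differ in length, and it was not tested.

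**Figure D2:**
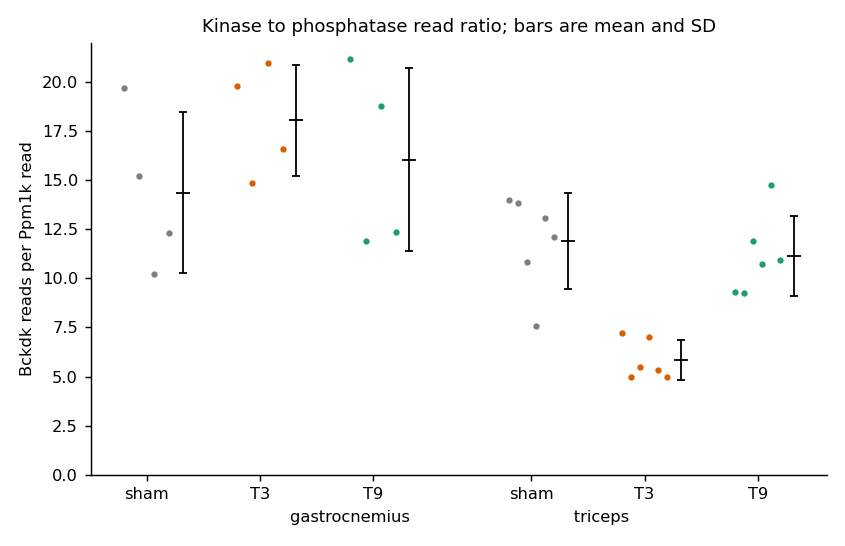
The y axis is Bckdk reads divided by Ppm1k reads, from 0, with 1 point per library in the 6 groups on the x axis; black bars are the mean and SD. The triceps T3 libraries, at 4.96 to 7.23, lie below all other libraries, of which the lowest is a triceps sham library at 7.57.

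After the complex come the enzymes of the separate branches. Ivd, isovaleryl-CoA dehydrogenase, had 43.1 to 183.1 CPM in sham (median 101.6) and 124.2 to 345.2 CPM after T3 (median 202.1). The sham libraries were widely spread (CV 52.4%) and the groups overlapped, but the log2 difference of 1.11 ± 0.23 was the largest of the 10 (adjusted p = 0.00234). Libraries with the number 60 had 43.1 to 103.7 CPM in sham and 124.2 to 218.2 CPM after T3. Those with 57 had 176.3 to 183.1 CPM and 270.2 to 345.2 CPM. Mccc1 and Mccc2 encode the biotin-carrying and the other subunit of methylcrotonyl-CoA carboxylase. Mccc2 had 17.7 to 34.1 CPM in sham (median 27) and 34.7 to 49.5 CPM after T3 (median 42.1), with no overlap and a log2 difference of 0.64 ± 0.13 (adjusted p = 0.00183). Mccc1 had 13.1 to 41.3 CPM in sham (median 26.5) and 23.4 to 51.1 CPM after T3 (median 35.9), and the groups overlapped over most of their range. Its log2 difference of 0.55 ± 0.20 was at the edge of the threshold (adjusted p = 0.0490). Hibadh, 3-hydroxyisobutyrate dehydrogenase of the valine branch, had 97.6 to 145.1 CPM in sham (median 123.2) and 140.0 to 187.1 CPM after T3 (median 170.5). Of the T3 libraries 1 lay within the sham range, and the log2 difference was 0.43 ± 0.11 (adjusted p = 0.0120).

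Of the 9 calls, 7 held in each of the 18 fits that left out 1 library, while Bckdha was called in 11 of 18 and Mccc1 in 6 of 18. Without triceps sham replicate 4, the library with the high macrophage and fibroblast markers, the log2 difference of Bckdha was 0.49 (adjusted p = 0.0706), that of Mccc1 was 0.40 (adjusted p = 0.115), and the other 7 remained called. Without the 4 libraries of lowest median the differences of these 2 genes were 0.34 (adjusted p = 0.202) and 0.26 (adjusted p = 0.248), and without the term for the label number neither was called (adjusted p = 0.0849 and 0.170). After centring, 4 members were higher (Ivd 0.87, Ppm1k 0.63, Dbt 0.58 and Mccc2 0.40) and Bckdk was lower, with 10.1% of all genes higher and 7.95% lower. Within the number 60 libraries 5 members were higher, against 9.29% of all genes. Within the number 57 libraries, with 2 per group, 1 was (Dbt), against 3.98% of all genes.

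**Figure D3:**
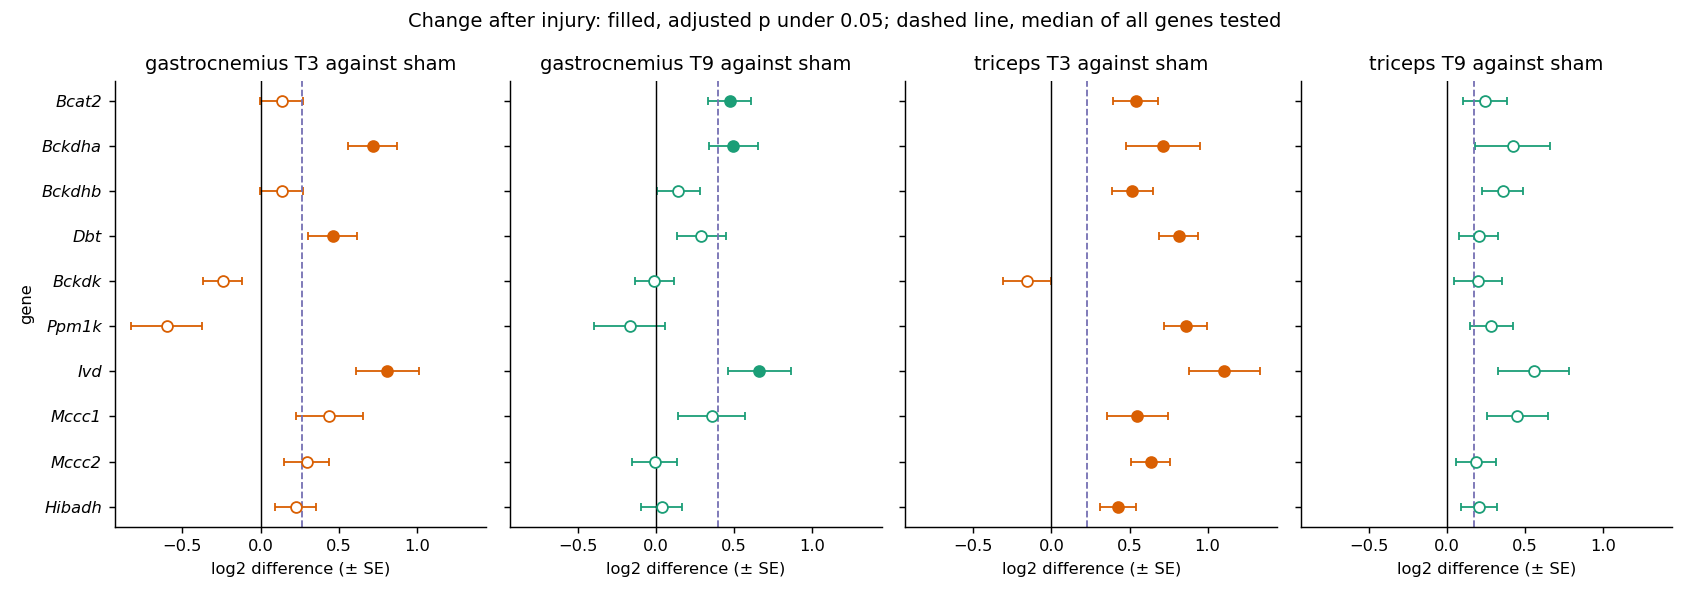
The x axis is the log2 difference from sham with its SE and the y axis lists the 10 genes, for each muscle and injury; filled points had an adjusted p under 0.05 and the dashed line is the median of all genes tested. In the triceps after T3, 9 points are filled and lie right of the dashed line at 0.23, whereas after T9 none is filled.

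After T9 injury in the same muscle, none of the 10 members passed the test against sham, and 1 of all genes tested did (0.00889%), Gm5532, named here after its values were seen. The sham libraries are those already used for T3, so the 2 comparisons are not independent. All 10 mean differences were positive, from 0.19 for Mccc2 to 0.56 for Ivd, with a median of 0.26 against 0.17 for all genes. Bckdhb, Ivd and Mccc1 had an unadjusted limma p under 0.05, and so did 1185 of all genes. In the 2 libraries per group with the number 57, the differences of Bckdha, Bckdk, Ppm1k, Ivd and Mccc2 were negative.

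The direct comparison of the 2 injury levels in the triceps called 3 members higher after T3, against 4.95% of all genes, and none lower, against 2.65%. They were Dbt (log2 difference 0.61 ± 0.13, adjusted p = 0.00570), Ppm1k (0.58 ± 0.14, adjusted p = 0.0139) and Mccc2 (0.45 ± 0.13, adjusted p = 0.0359). After T9, Dbt had 29.3 to 38.2 CPM (median 34.7), Ppm1k 12.8 to 17.5 CPM (median 13.9) and Mccc2 26.9 to 32.3 CPM (median 30.3). The T3 and T9 libraries of Mccc2 did not overlap, as for 3.32% of all genes in this direction, and those of Dbt and Ppm1k overlapped at 1 end. Bckdk pointed the other way, at 123.4 to 188.6 CPM after T9 (median 164.9), with a log2 difference of -0.36 ± 0.15 that did not pass (adjusted p = 0.189). It passed after centring (-0.42, adjusted p = 0.0458) and without the libraries of lowest median (-0.42, adjusted p = 0.0133). Dbt and Ppm1k were also called after centring, with 4.85% of all genes higher and 3.85% lower, and Mccc2 was not (0.38, adjusted p = 0.0597). In the fits that left out 1 library, Dbt and Ppm1k were called in 18 of 18 and Mccc2 in 10 of 18, and Mccc2 was not called without the term for the label number (adjusted p = 0.0806). None of the 3 was called within the number 60 or the number 57 libraries alone.

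In the gastrocnemius, 3 of the 10 members rose after T3 injury, a share near that of all genes, 27.1% of which were higher. The median log2 difference of the members was 0.26, and that of all genes was 0.27. Ivd had 101.2, 113.1, 143.2 and 69.9 CPM in the 4 sham libraries and 163.6, 245.5, 154.6 and 175.5 CPM after T3, a log2 difference of 0.81 ± 0.20 (adjusted p = 0.00792). Bckdha had 37.2, 34.3, 33.7 and 23.4 CPM in sham and 57.4, 57.8, 46.4 and 47.7 CPM after T3, a difference of 0.72 ± 0.16 (adjusted p = 0.00400). For these 2 genes the groups did not overlap, as for 23.9% of all genes, and both were called in each of the 12 fits that left out 1 library and after centring. Dbt, with 26.6, 31.0, 36.1 and 25.7 CPM in sham and 34.0, 45.1, 37.8 and 47.4 CPM after T3, overlapped between groups. Its difference of 0.46 ± 0.16 (adjusted p = 0.0362) was called in 6 of the 12 fits that left out 1 library and not after centring (0.19, adjusted p = 0.281).

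The phosphatase did not rise in this muscle. Ppm1k had 8.43, 10.5, 15.9 and 10.5 CPM in sham gastrocnemius and 6.07, 8.0, 6.78 and 8.48 CPM after T3. The T3 libraries were low, and 1 of them lay above the lowest sham library. The log2 difference of -0.60 ± 0.23 did not pass (adjusted p = 0.0544). It was -0.88 and passed after centring (adjusted p = 0.00704), and it passed without sham replicate 1 (-0.73, adjusted p = 0.0413). Bckdk had 166.2, 159.9, 163.3 and 128.7 CPM in sham and 120.2, 118.7, 142.1 and 140.5 CPM after T3, a difference of -0.24 ± 0.13 that did not pass (adjusted p = 0.149). It passed after centring (-0.52, adjusted p = 0.00314) and without sham replicate 4 (-0.33, adjusted p = 0.0339), whose median is among the lowest. The remaining 5 members differed by 0.13 to 0.44, and none passed. Of these, Mccc1 passed when sham replicate 3 was left out (0.62, adjusted p = 0.0260). After centring, 2 members were thus higher and 2 lower, against 14.6% and 14.5% of all genes.

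After T9 injury 3 of the 10 members rose in the gastrocnemius, against 37.6% of all genes, with a median of 0.22 for the members and 0.40 for all genes. Ivd had 162.9, 171.8, 162.2 and 158.5 CPM after T9, a difference from sham of 0.66 ± 0.20 (adjusted p = 0.0185). Bckdha had 43.3, 41.5, 47.1 and 46.8 CPM, a difference of 0.49 ± 0.16 (adjusted p = 0.0225). Bcat2, with 67.8, 77.8, 75.0 and 66.4 CPM in sham, had 118.1, 96.9, 93.4 and 90.7 CPM after T9, a difference of 0.47 ± 0.14 (adjusted p = 0.0166). For these 3 genes every T9 library lay above every sham library, as for 34.8% of all genes. With 1 library left out, Ivd was called in 12 of 12 fits, Bcat2 in 11 and Bckdha in 10. Mccc1, not called with all libraries, passed without sham replicate 3 (0.53, adjusted p = 0.0410). After centring, the differences were 0.26 for Ivd, 0.10 for Bckdha and 0.07 for Bcat2, none of them called, and Bckdk was lower (-0.41, adjusted p = 0.0135), against 12.4% of all genes. Between T3 and T9 in this muscle no member was called by limma, against 1.63% of all genes, and 1 member, Bcat2, had an unadjusted p under 0.05, as did 1708 of all genes. Every T3 library of Bckdk lay below every T9 library, at 164.4, 151.2, 149.4 and 146.3 CPM, as for 12.3% of all genes in this direction.

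Whether T3 changed the members differently in the 2 muscles was tested in 12 mice that gave both muscles, in a model that blocks on the mouse. Ppm1k passed: its T3 effect was lower in the gastrocnemius than in the triceps by a log2 difference of -1.48 ± 0.24 (adjusted p = 0.00908), against 1.10% of all genes in this direction. It was called in each of the 12 fits that left out 1 mouse, after centring (-1.44, adjusted p = 0.00233) and with the mouse left out of the model (adjusted p = 0.0104). Without the mice of the low-median libraries, which leaves 2 sham mice, it was -1.22 and did not pass (adjusted p = 0.0565). The other 9 members did not pass. For the T9 effect no member passed, against 6.95% of all genes in either direction. The difference of Ppm1k was then -0.60 ± 0.24 (adjusted p = 0.172), and it passed after centring (-0.73, adjusted p = 0.0342). In sham mice, Bckdha, Ivd and Mccc1 were higher in the gastrocnemius by 0.65, 0.53 and 0.53, against 26.8% of all genes. None of these 3 was called after centring, without the low-median mice or without the mouse block.

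The rest of the pathway was followed through lists chosen by function. Beside the members, 45 genes were taken from lists of later breakdown steps, shared E3 and cofactors, nitrogen acceptors, transport and regulators. In the triceps after T3, 24 of these 45 were higher and none lower, beside 2138 of all 11249 genes higher. After centring, 15 were higher and 1 lower, beside 10.1% and 7.95% of all genes. In the later steps for isoleucine and valine, 6 of 8 genes were higher, among them Hibch, 3-hydroxyisobutyryl-CoA hydrolase (0.85 ± 0.13, adjusted p = 0.000184), and Hadha and Hadhb, the trifunctional protein shared with fat oxidation (1.07 ± 0.22 and 0.98 ± 0.16). After centring, 3 of these 8 were higher. In the last steps for leucine, 2 of 4 were higher, Acat1 (0.74 ± 0.13) and Auh (0.36 ± 0.12). Auh was called in 6 of the 18 fits that left out 1 library and not after centring (0.12, adjusted p = 0.650). In the arm that turns propionyl-CoA into succinyl-CoA, 1 of 8 was higher, the methylmalonyl-CoA mutase gene listed as Mut (0.73 ± 0.14, adjusted p = 0.00115).

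Over all 11249 genes, 2138 were higher in the triceps after T3, and after centring 10.1% were higher and 7.95% lower. Of 6 genes that take up the nitrogen, 5 were higher in this comparison, and after centring 4 were higher and 1 lower. The higher genes before centring included alanine transaminase Gpt (1.24 ± 0.20, adjusted p = 0.000315), aspartate transaminase Got1 (1.07 ± 0.19) and glutamine synthetase Glul (1.25 ± 0.26). Of 6 transport genes 3 were higher, the mitochondrial branched-chain amino acid carrier Slc25a44 (1.0 ± 0.25, adjusted p = 0.00793) and the plasma membrane transporters Slc3a2 (0.74 ± 0.23) and Slc7a6 (0.78 ± 0.24). Without triceps sham replicate 4 neither Slc3a2 (0.59, adjusted p = 0.0727) nor Slc7a6 (0.71, adjusted p = 0.0578) was called. Of 7 regulators 5 were higher, and 3 after centring. Klf15, a glucocorticoid-responsive factor known to control amino acid breakdown in muscle, had 21.2 to 59.95 CPM in sham and 39.2 to 153.5 CPM after T3, a difference of 1.41 ± 0.27 (adjusted p = 0.00120). Ppargc1a, the coactivator of mitochondrial genes, differed by 2.27 ± 0.31 (adjusted p = 9.9e-05), and Esrra, a nuclear receptor it activates, by 0.70 ± 0.14. Dld, the E3 subunit shared with the other 2-oxoacid dehydrogenases, differed by 0.47 ± 0.13 (adjusted p = 0.0158), and was not called after centring (0.24, adjusted p = 0.344).

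Neighbouring lists were read beside the pathway. In the triceps after T3, 6 of 12 genes of the pyruvate and 2-oxoglutarate dehydrogenases and their regulators were higher, beside 2138 of all 11249 genes. Among them Pdhb was at 0.63 ± 0.14 and Dlst at 0.76 ± 0.18. After centring, 2 of the 12 were higher, beside 10.1% of all genes. The citric acid cycle list of 14 genes had a median log2 difference of 0.26 in this comparison, close to the 0.23 of all genes. No gene of any of these 9 lists was called in the triceps after T9, where 1 of all 11249 genes was. Compared with T9, T3 gave higher levels for 5 of the 45 pathway genes, beside 4.95% of all genes: Klf15 (1.12 ± 0.27), Glul (0.99 ± 0.26), Gpt (0.86 ± 0.20), Esrra (0.56 ± 0.14) and Hibch (0.51 ± 0.13). After centring, 3 were higher and 1 lower, beside 4.85% and 3.85% of all genes. Hibch (adjusted p = 0.103) and Esrra (adjusted p = 0.0580) were then no longer called. Gpt was not called without the term for the label number (adjusted p = 0.117), and Glul was called in 12 of the 18 fits that left out 1 library.

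In the gastrocnemius the other pathway genes split. After T3, 18 of 45 were higher and 2 lower, and after T9, 15 were higher and 7 lower. Of all genes, 27.1% were higher and 6.65% lower after T3, and 37.6% were higher and 5.67% lower after T9. After centring, the counts of higher and lower pathway genes were 6 and 7 after T3, beside 14.6% and 14.5% of all genes, and 4 and 11 after T9, beside 11.1% and 12.4%. Transport genes were higher after both injuries, 6 of 6 after T3 and 5 of 6 after T9, with Slc7a6 at 1.499 ± 0.23 and 1.23 ± 0.23 and Slc25a44 at 0.78 ± 0.18 and 0.76 ± 0.18. After centring, 4 transport genes were higher after T3 and 3 after T9. Slc25a44 was then not called after T9 (0.36, adjusted p = 0.0857). Of the 8 later genes for isoleucine and valine, 7 were higher after T3 and 3 after T9, among them Aldh6a1, methylmalonate semialdehyde dehydrogenase, after T3 (0.66 ± 0.16). After centring, 1 of these 8 genes was higher after T3 and 0 after T9. Oxct1, which uses ketone bodies, was lower after T3 (-0.89 ± 0.16, adjusted p = 0.00123) and after T9 (-0.80 ± 0.16, adjusted p = 0.00234). Klf15 was higher after T3 (0.96 ± 0.26, adjusted p = 0.0119), at 33.7 to 47.7 CPM in sham and 54.0 to 123.4 CPM after T3, and did not pass after T9 (0.55 ± 0.26, adjusted p = 0.0950). The T3 call of Klf15 was lost after centring (0.69, adjusted p = 0.0789). Among the regulators, Ppargc1b was lower after both injuries (-1.63 ± 0.31 and -1.40 ± 0.31) and Esrra was lower after T9 (-1.18 ± 0.18).

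**Figure D4:**
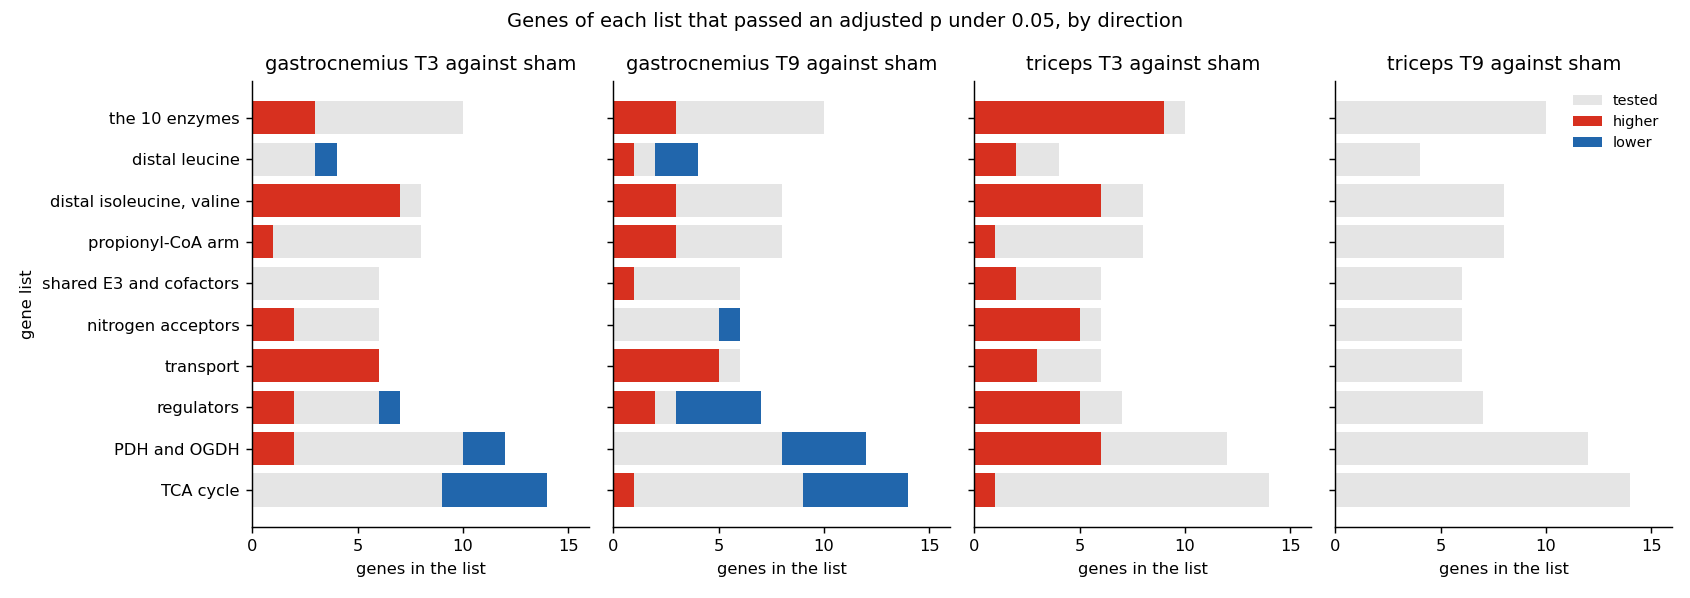
The x axis counts the genes of each list on the y axis for the 4 comparisons with sham; grey bars are the genes tested, red those higher and blue those lower at an adjusted p under 0.05. Red is the only colour in the triceps after T3. No gene of any list is coloured in the triceps after T9, where 1 of all genes tested passed. Blue appears in the gastrocnemius, with 5 of 14 citric acid cycle genes lower after each injury. Of all genes there, 6.65% were lower after T3 and 5.67% after T9.

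Across the 30 libraries, after centring, the members did not form 1 group. Over the 45 pairs of members Pearson's r had a median of 0.36 and ran from -0.30 for Bckdk and Dbt to 0.88 for Ivd and Mccc1. These correlations are a description, since the libraries share muscles, surgeries and, for 12 mice, the animal. The genes most like Ivd were Hadha (r = 0.94), Acad11 (0.92) and Cpt2 (0.91), and Cpt2 is a carnitine palmitoyltransferase of mitochondrial fat oxidation. Those most like Mccc2 were Hadh (0.91), Acadl (0.90) and Gpt (0.90), the first 2 being enzymes of fat oxidation. Those most like Ppm1k were Abhd18 (0.88), Snai3 (0.88) and Lpl (0.87), of which Lpl is lipoprotein lipase.

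Cell type markers were read beside these results. In the triceps after T3, 2 of 8 myofibre markers and 3 of 5 fibroblast markers were lower, and 1 of 7 macrophage and 1 of 7 adipocyte markers were higher. Over all 11249 genes, 2138 were higher and 486 lower in this comparison. Slow fibre markers gave summed levels of 409 to 2085 CPM in sham triceps and 606 to 1335 CPM after T3, and none of the 7 passed. In the gastrocnemius 1 of 7 slow fibre markers was lower after T3 and 2 of 7 after T9. Of 8 myofibre markers there, 3 were lower after each injury and 1 was higher after T3. Of 5 fibroblast markers 2 were lower after T3 and 1 after T9, and of 7 adipocyte markers 1 was lower after each. Of 7 macrophage markers 1 was higher after T3 and 3 after T9, and 1 of 5 endothelial and 1 of 4 Schwann cell markers were higher after T9. Over all genes of the gastrocnemius, 27.1% were higher after T3 and 37.6% after T9, and 6.65% and 5.67% were lower. The part of these markers in the members' differences was not tested.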

How the data were processed

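PolyA RNA of gastrocnemius and triceps was made into stranded libraries and read in pairs, per the labels' protocols. The authors used HISAT2 2.1.0, featureCounts, Subread 1.5.1, limma and the GRCm38 build, per the submitters' processing notes; their annotation release and any low-count filter were not given in these sources. The deposited table gives each value on a log2 CPM scale, to which 0.5 reads had been added. Whole reads were recovered from them for 100% of values within 0.01 reads, and CPM and depth were computed from these reads. Of the gene IDs, 11240 matched a symbol in GENCODE M21 and 9 did not.

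Genes reaching a log2 value of 0 in 4 or more libraries entered the limma test (limma 3.58.1, R 4.3.3; moderated variances with a trend; two-sided, with Benjamini-Hochberg adjustment across the tested genes, threshold 0.05). One model held the 12 gastrocnemius libraries and another the 18 triceps libraries, the latter with a term for the number 57 or 60 in the description, a number the labels do not explain. Muscles were compared in 24 libraries of 12 mice with the mouse as a block. The mouse was read from the number that follows 57 or 60, which is an inference: libraries sharing it deviated together from their group means (r above 0.1) in 10 of 12 mice, the exceptions being sham mice whose triceps libraries are replicates 1 (r = 0.0100) and 3 (r = -0.638). Titles' replicate numbers do not pair libraries within a muscle. The labels do not say that replicates within a muscle are separate animals, apart from these numbers, so p-values measure the spread between these samples, which may be technical. Counts of replicate libraries differed by more than sampling noise (chi-square per degree of freedom of at least 9.78), so none was treated as 1 library deposited again.

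The 10 members are named in every comparison, with up to 3 genes of lowest adjusted p per pathway list and comparison, Klf15, Dld and Slc25a44, and the 3 genes most correlated with each of 3 members. The members and the lists were chosen with earlier results of these data known. Alternatives were centring, no filter, log2(CPM + 1) with a pseudocount of 1, other sets of libraries and blocks; figures were drawn with matplotlib 3.10.9. The test was checked on simulated data with independent noise per gene. No shift of library medians was built in, so the check does not cover such shifts.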

Additional observations from a re-analysis of the deposited data

Results flagged for a closer look

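Of 60 sets of libraries (10 members in 6 groups), 5 held a library that stood apart from the rest of its group; chance flags about 1 in 20 groups, so some flags come without a cause. Bcat2 was high in gastrocnemius T3 replicate 4 (96.9 CPM). Triceps sham replicate 4, which had a low median and high macrophage and fibroblast markers, was low for Bcat2 (51.5 CPM) and Bckdhb (16.9 CPM). Bckdhb was low in triceps T3 replicate 1 (31.8 CPM), and Bckdk was low in gastrocnemius sham replicate 4 (129 CPM).

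Of all 11249 genes, 140 passed for the T3 effect between muscles and 782 for the T9 effect. The pyruvate and 2-oxoglutarate dehydrogenase list had 0 of 12 genes called for T3 and 4 for T9. The citric acid cycle list had 1 of 14 and 3 of 14. Genes of these 2 lists are not named here, and other lists give up to 3 genes each. Among the genes named, the change after injury differed between the muscles for several (limma, mouse as a block; gastrocnemius minus triceps, log2). After T3 this was Ppm1k (-1.48, adjusted p = 0.00908), Oxct1 (-1.19, adjusted p = 0.0178), Got1 (-1.28, adjusted p = 0.0345), Ppargc1a (-3.04, adjusted p = 0.000105) and Ppara (-2.41, adjusted p = 0.00714). After T9 it was Ppargc1a (-3.10, adjusted p = 5.5e-05), Ppara (-2.53, adjusted p = 0.00210), Got1 (-1.88, adjusted p = 0.00166), Esrra (-1.34, adjusted p = 0.00675), Oxct1 (-1.16, adjusted p = 0.00721), Gpt (-1.01, adjusted p = 0.0298) and Dld (-0.64, adjusted p = 0.0356). Several of these calls were lost in other fits. With 1 mouse left out, the T3 difference was called in 4 of 12 fits for Got1 and 9 of 12 for Oxct1, and the T9 difference in 6 of 12 for Dld and 8 of 12 for Gpt. None of these 4 was called without the mouse block (adjusted p of 0.116, 0.0611, 0.102 and 0.179) or without the mice of the low-median libraries (0.133, 0.133, 0.155 and 0.0738). Dld was also lost after centring (adjusted p = 0.0778). Without those mice the T3 difference of Ppm1k (0.0565) and the T9 differences of Oxct1 (0.0540) and Esrra (0.0577) did not pass either.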

How the results depend on the processing

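Of 2396 values of single named genes under the alternatives, 2121 kept their direction and their side of the threshold, 248 lost a call, 16 gained one and 11 changed sign. The sign changed for Bckdk in the triceps after T3 with the number 60 libraries only (0.0026), for Bckdk in the gastrocnemius after T9 when single libraries were left out (0.000525 to 0.0276 where it turned), and in the triceps after T9 with the number 57 libraries only for Bckdha (-0.18), Bckdk (-0.0023), Ppm1k (-0.014), Ivd (-0.10) and Mccc2 (-0.058). Centring each library on its median gave 1641 genes higher and 1627 lower in the gastrocnemius after T3 (3046 and 748 without it), 1247 and 1397 after T9 (4226 and 638; 2644 in all, with 1 member called) and 1140 and 894 in the triceps after T3 (2138 and 486), where 5 members were called. It gave 2 genes in the triceps after T9, 248 for the muscle difference in the T3 effect, 1 member for that in the T9 effect and 0 members between sham muscles.

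With only the compared groups in the fit, 2357 genes were called in the gastrocnemius after T3, 1059 between T3 and T9 there, and 2 in the triceps after T9. With the number 60 libraries only, 1247 genes and 5 members were called in the triceps after T3, and 50 genes and 0 members between T3 and T9. With the number 57 libraries only these were 684 genes and 1 member, and 314 genes and 0 members, and 0 genes were called after T9. Without the libraries of lowest median, 563 genes were called between T3 and T9 in the gastrocnemius, 39 genes and 0 members for the T3 effect between muscles, 327 genes for the T9 effect, and 9 genes and 0 members between sham muscles. The smaller sets hold fewer libraries, and the cause of these changes was not tested.

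Title replicate numbers do not pair libraries within a muscle; with them as a replicate block, 70 genes were called between T3 and T9 in the gastrocnemius and 0 in the triceps after T9, while gastrocnemius members numbered 2 (T3) and 3 (T9), and triceps members 9 (T3). With no replicate block for the mouse, 75 genes were called for the T3 effect between muscles, 447 for the T9 effect, and 95 genes and 0 members between sham muscles.

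Leaving out single libraries or mice gave 2661 to 4765 genes and 2 to 4 members in the gastrocnemius after T3, 3384 to 5589 and 2 to 4 after T9, and 11 to 563 genes between them. The triceps gave 1865 to 3122 genes and 7 to 9 members after T3, 0 to 7 genes after T9, and 539 to 1066 genes and 2 to 3 members between them. The T3 effect between muscles gave 54 to 183 genes, the T9 effect 353 to 1488, and sham muscles 96 to 4650 genes and 0 to 4 members.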

Other observations

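Ppargc1a had the largest difference between muscles among the pathway genes given above as differing. In the triceps it had 16.8 to 83.6 CPM after sham, 76.6 to 287.1 CPM after T3 and 77.2 to 148.2 CPM after T9. In the gastrocnemius it had 21.1 to 62.7 CPM after sham, 17.6 to 34.2 CPM after T3 and 14.5 to 17.3 CPM after T9. Every injured gastrocnemius library lay below every injured triceps library. Oxct1, the ketone body enzyme, had 234.9 to 362.3 CPM in sham gastrocnemius, 152.5 to 183.9 CPM after T3 and 142.9 to 210.0 CPM after T9. Its triceps groups overlapped, at 235.6 to 425.5 CPM, 312.5 to 560.3 CPM and 351.2 to 480.0 CPM. Got1 had 166.4 to 380.2 CPM in sham gastrocnemius and 140.8 to 159.0 CPM after T9, with no overlap, against 129.2 to 467.1 CPM and 300.7 to 578.7 CPM in the triceps.

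Gpt, alanine transaminase, had 12.4 to 39.3 CPM in sham triceps, 36.2 to 113.6 CPM after T3 and 23.9 to 42.1 CPM after T9. Klf15 had 25.7 to 62.1 CPM in the triceps after T9, against 21.2 to 59.95 CPM after sham.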
